A study of Bos taurus with 8 samples.

Results

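The 50 miRNAs described here are the mature miRNAs of the imprinted DLK1-DIO3 domain that were looked up by name in a table of 1028 bovine miRNAs, and all 50 were found. The list was set by name and not by a measured value, though earlier results of these data were known when it was chosen. The RefSeq annotation of ARS-UCD2.0, used for gene order only because the authors worked on another assembly, places every one of them on chromosome 21 between the genes DLK1 and DIO3. They were measured in extracellular vesicles (EVs) isolated by ultracentrifugation from the follicular fluid (FF) of crossbred beef cows (Bos taurus). The SUM group held 4 small-RNA libraries of fluid aspirated in August, and the WIN group held 4 libraries of fluid aspirated in winter. Each library was a pool of 2 cows, drawn from 11 cows that served in both seasons. In SUM and WIN alike, the cows carried a progesterone device and received a GnRH analogue and FSH before ovum pick-up, so both groups describe hormone-stimulated follicles. Cow age was not given in the sources used here, and which pools hold the same cows in both seasons was not stated.

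The DLK1-DIO3 domain is one of the large imprinted regions of placental mammals. DLK1, a membrane protein of the Notch ligand family, RTL1, a gene derived from a retrotransposon, and DIO3, the deiodinase that inactivates thyroid hormone, are expressed mainly from the paternal chromosome. The long noncoding RNAs MEG3 and MEG8 and the miRNAs of the domain are expressed mainly from the maternal chromosome. In the mouse several of these miRNAs lie antisense to Rtl1 and direct cleavage of its transcript. The miRNAs of the domain are known for high levels in brain, placenta and embryonic tissues.

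Values are CPM, that is, reads per 1000000 miRNA reads of the library after the authors' TMM adjustment of library size. Whole reads could be recovered from them, and the libraries held 517138, 887254, 214004 and 902642 miRNA reads in SUM replicates 1 to 4, against 235340.0, 731675, 1689467 and 558496 in WIN replicates 1 to 4. A single read therefore stood for 1.26 to 4.02 CPM in SUM and 0.567 to 3.83 CPM in WIN. SUM replicate 3 and WIN replicate 1 were the shallowest, and their values for low miRNAs are the least precise. Among the other imprinted miRNAs, which lie outside this domain, miR-335 differed by -0.02 on the log2 scale (SE 0.26, limma adjusted p = 0.96) and miR-296-3p by 0.59 (SE 0.33, adjusted p = 0.32). All 4 listed miRNAs known from granulosa cells were read, miR-202 in every library and miR-212 in 5 of 8, and they summed to 6444 to 13440 CPM in SUM and 4024 to 6702 CPM in WIN. Most of this was miR-202, which averaged 7682 CPM in SUM and 4137 CPM in WIN (log2 fold change 0.87, limma adjusted p = 0.11). The others differed by 0.36 (miR-224, adjusted p = 0.54), 0.15 (miR-132, adjusted p = 0.89) and -0.89 (miR-212, adjusted p = 0.71).

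Reads of the cluster were sparse in FF-EVs. Of the 50 members, 35 had a read in any library and 15 had none. The mean over the 8 libraries lay above 10 CPM for 12 members, from 1 to 10 CPM for 18 and below 1 CPM for 5. Only 14 members were read in all 8 libraries, and 5 were read in a single library. The cluster took 0.0924% ± 0.0164 of the miRNA reads in SUM and 0.157% ± 0.0418 in WIN (SD, n = 4 each). The 95% Wilson intervals of single libraries ran from 0.0664% to 0.125% in SUM and from 0.113% to 0.233% in WIN, and they cover counting error only, since PCR copies were not marked.

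Summed over all 50 members, the cluster reached 1084, 877, 945 and 993 CPM in SUM replicates 1 to 4, against 1922, 1191, 1573 and 1182 CPM in WIN replicates 1 to 4. Every SUM library lay below every WIN library. SUM libraries averaged 975 ± 86.8 CPM and WIN libraries 1467 ± 354 CPM (SD, n = 4 each). The log2 ratio of -0.59 is a description without a test. WIN replicate 1 carried the highest sum, and without it the log2 ratio was -0.43. In a bulk vesicle preparation, fewer vesicles that carry a miRNA and fewer copies in each vesicle cannot be told apart. The sums are also relative to the TMM-adjusted size of each library, so a lower sum cannot be told apart from more reads of other miRNAs.

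**Figure D1:**
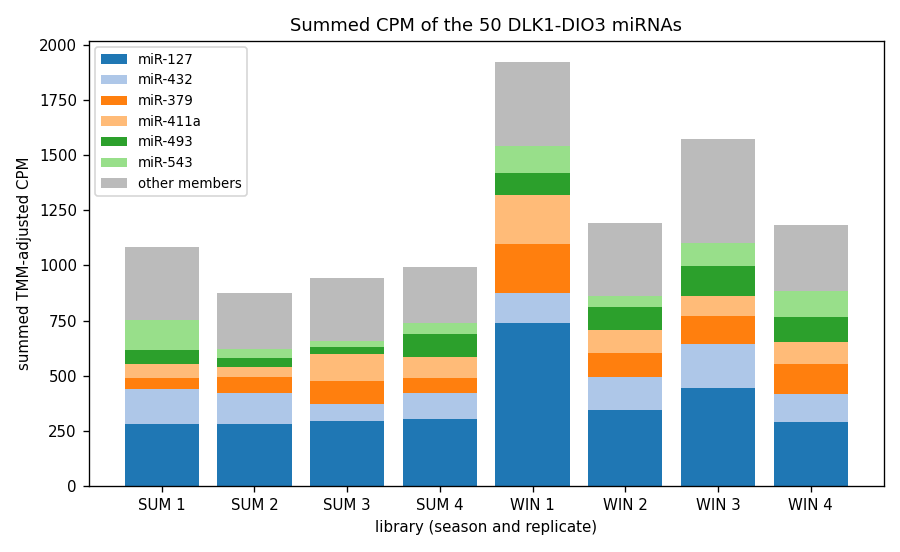
Summed CPM of the 50 DLK1-DIO3 miRNAs (vertical axis) in each library, SUM replicates left and WIN replicates right. Each bar is 1 library, stacked from the 6 most abundant members by mean CPM, with all other members in grey on top: the SUM bars end between 877 and 1084 CPM, below the WIN bars at 1182 to 1922 CPM.

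The sum was carried by few miRNAs. The 12 members above 10 CPM held 94.1% ± 1.85 of the cluster's CPM in SUM and 94.4% ± 1.11 in WIN. miR-127 alone held 30.0% ± 2.81 in SUM and 30.0% ± 5.96 in WIN, so its weight within the cluster differed by less than the spread between libraries. Without miR-127 the cluster summed to 684 ± 88.1 CPM in SUM and 1013 ± 168 CPM in WIN. The log2 ratio of -0.57 was then close to that with it.

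The season comparison asks which cluster miRNAs differed in FF-EVs between hot and cool months. Among the 12 members that could be tested above 10 CPM, limma on log2(CPM + 1) with Benjamini-Hochberg adjustment over all 243 miRNAs tested called 0 lower in SUM and 0 higher in SUM. A call here means a fold change beyond 1.5 whose adjusted p is under 0.1. The background was 2.47% of the 243 called lower and 5.35% called higher. At an unadjusted p below 0.05, 3 of the 12 were lower (miR-379, miR-493 and miR-370), beside 9.88% of the 243, and 0 were higher, beside 12.3%. The counting tools differed. On the recovered reads, edgeR called miR-379 lower in SUM (1 of 12, beside 6.17% of the 243), and DESeq2 called miR-370, miR-379 and miR-493 lower (3 of 12, beside 9.05%), while neither called a member higher (beside 8.23% for edgeR and 9.47% for DESeq2).

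The direction was shared by most of these 12 members. The log2 fold change was negative for 10 of 12, beside 48.6% of the 243, with a median of -0.55 against 0.02 over all 243. All 12 had a mean above 10 CPM in SUM as well as in WIN. Members of a cluster share transcripts and libraries and are not independent, and these counts have no test of their own. When each library was rescaled to a sum of 1000000, the median over the 243 moved to -0.17 and that of the 12 to -0.73. Rescaling multiplies every value of a library by the same factor. The gap of 0.57 between the medians could therefore hardly change, and its staying the same is no check. Rescaling also turned the split of calls over the 243 to 11 higher and 22 lower, against 13 higher and 6 lower, and 2 of the 12 members (miR-379 and miR-493) were then called lower, beside 9.05%.

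**Figure D2:**
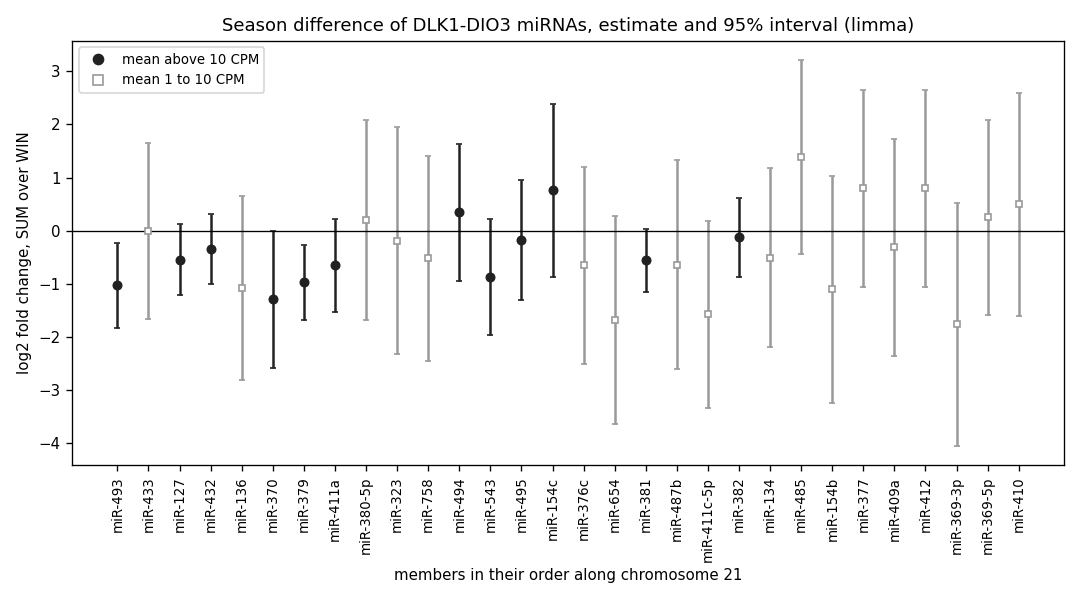
Log2 fold change of SUM over WIN (vertical axis, log2(CPM + 1) scale) for the 30 members with a mean above 1 CPM, in their order along chromosome 21. Filled points are the 12 members above 10 CPM, open squares the 18 members from 1 to 10 CPM, and bars the 95% limma intervals: 22 of the 30 estimates lie below 0, and most of the intervals cross it. Of those below 0, miR-433 lies at -0.0006, and miR-654, miR-136 and miR-376c had SUM means below 1 CPM.

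The first stretch of the domain, from miR-493 to miR-136, carried about as many CPM as all the rest. Its 7 members summed to 481 ± 49.6 CPM in SUM and 731 ± 197 CPM in WIN, and the SUM libraries (414 to 529 CPM) did not overlap the WIN libraries (548 to 984 CPM). Within it, miR-431, miR-433, miR-127, miR-432 and miR-136 overlap RTL1 in the annotation, where miR-432 and miR-136 also overlap MEG8. miR-431 and miR-665 had no read.

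bta-miR-127, known for placental expression and, in the mouse, for cleaving Rtl1 mRNA, was the most abundant member and ranked 84 among all miRNAs by mean CPM. It had 280.3, 281, 298 and 304 CPM in SUM replicates 1 to 4, against 739, 343, 443 and 289 CPM in WIN replicates 1 to 4. The SUM libraries lay close together at 291 ± 11.9 CPM, whereas the WIN libraries spread around 454 ± 201 CPM and WIN replicate 4 fell within the SUM range. The log2 fold change was -0.55 (SE 0.31, 95% interval -1.22 to 0.13, adjusted p = 0.32). The high value rested on WIN replicate 1, where 193 reads gave a 95% interval of 642 to 851 CPM, and in the shallowest SUM library 74 reads gave 237 to 374 CPM.

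bta-miR-432 had 159, 142, 76.4 and 117 CPM in SUM, against 134, 153, 199 and 130.0 CPM in WIN. The groups overlapped, and the log2 fold change was -0.35 (SE 0.30, adjusted p = 0.53). bta-miR-493, the member nearest to DLK1 in the annotation, had 62.8, 42.7, 32.2 and 103 CPM in SUM, against 99.6, 104, 138 and 113 CPM in WIN. Only SUM replicate 4 reached into the WIN range. Its log2 fold change of -1.03 (SE 0.37, 95% interval -1.83 to -0.23) had an unadjusted p of 0.016 and an adjusted p of 0.12. Over all alternatives the adjusted p of miR-493 ran from 0.066 to 0.31, with 0.099 in DESeq2 and 0.12 in edgeR.

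bta-miR-370, which lies within MEG8 between the RTL1 miRNAs and the long downstream array, was low and variable. It had 8.37, 16.5, 24.1 and 12.6 CPM in SUM, against 53.6, 17.7, 90.2 and 20.8 CPM in WIN. SUM replicate 3 lay within the WIN range, and the WIN mean rested on replicates 1 and 3. The log2 fold change was -1.30 (SE 0.59, 95% interval -2.58 to -0.01, unadjusted p = 0.048, adjusted p = 0.22), and the adjusted p was 0.12 in edgeR and 0.067 in DESeq2. Few reads stood behind these values, 4 to 12 in each SUM library and 12 to 14 in WIN libraries other than replicate 3, which had 159.

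The downstream array begins with the stretch from miR-379 to miR-154c. Its 14 members summed to 323 ± 79.2 CPM in SUM and 480 ± 117 CPM in WIN, with 6 above 10 CPM and 11 read in any library. Here the SUM libraries (227 to 416 CPM) overlapped the WIN libraries (384 to 643 CPM). In the mouse, miRNAs of this array are processed from the long noncoding transcript Mirg, and in the bovine annotation an uncharacterised long noncoding RNA overlaps the genes from miR-379 to miR-495.

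bta-miR-379, the first miRNA of the array, separated the seasons. It had 52.3, 73.0, 101 and 70.3 CPM in SUM replicates 1 to 4, against 226, 105, 129 and 135 CPM in WIN replicates 1 to 4. Every SUM library lay below every WIN library, with means of 74.0 ± 19.9 CPM in SUM and 149 ± 53.0 CPM in WIN. The log2 fold change was -0.98 (SE 0.32, 95% interval -1.68 to -0.27) with an unadjusted p of 0.011 and an adjusted p of 0.11 in limma, just outside the threshold. The adjusted p was 0.095 in edgeR and 0.064 in DESeq2, 0.074 in limma after rescaling and 0.070 without SUM replicate 3, and it ran from 0.064 to 0.27 over all alternatives. Libraries of the seasons failed to overlap, with SUM lower, for 2 of the 12 members (miR-379 and miR-381), beside 7.82% of the 243 miRNAs. With SUM higher this was so for 0 of the 12, beside 8.23%.

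bta-miR-411a, the neighbour of miR-379, had 62.8, 44.1, 125 and 94.2 CPM in SUM, against 222, 106, 89.1 and 97.1 CPM in WIN. The groups overlapped, WIN replicate 1 stood above all others, and the log2 fold change was -0.66 (SE 0.40, adjusted p = 0.33). bta-miR-543 had 134, 37.2, 24.1 and 51.5 CPM in SUM, against 119, 50.7, 102 and 119.6 CPM in WIN. SUM replicate 1 was the highest of the 8, and the log2 fold change was -0.87 (SE 0.50, adjusted p = 0.32).

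The other members of this stretch above 10 CPM showed no common direction. bta-miR-495 had 50.2, 17.9, 28.2 and 21.4 CPM in SUM, against 38.3, 36.7, 52.2 and 12.1 CPM in WIN (log2 fold change -0.18, SE 0.52, adjusted p = 0.89). bta-miR-494 had 39.8, 13.8, 16.1 and 21.4 CPM in SUM, against 7.66, 36.7, 11.3 and 20.8 CPM in WIN (log2 fold change 0.35, SE 0.59, adjusted p = 0.78). In each case the range of one season enclosed most libraries of the other. bta-miR-154c had 73.2, 38.6, 32.2 and 31.4 CPM in SUM, against 3.83, 45.6, 77.2 and 20.8 CPM in WIN. Its positive log2 fold change of 0.76 (SE 0.74, adjusted p = 0.58) rested on the 1 read of WIN replicate 1, without which it was -0.03.

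**Figure D3:**
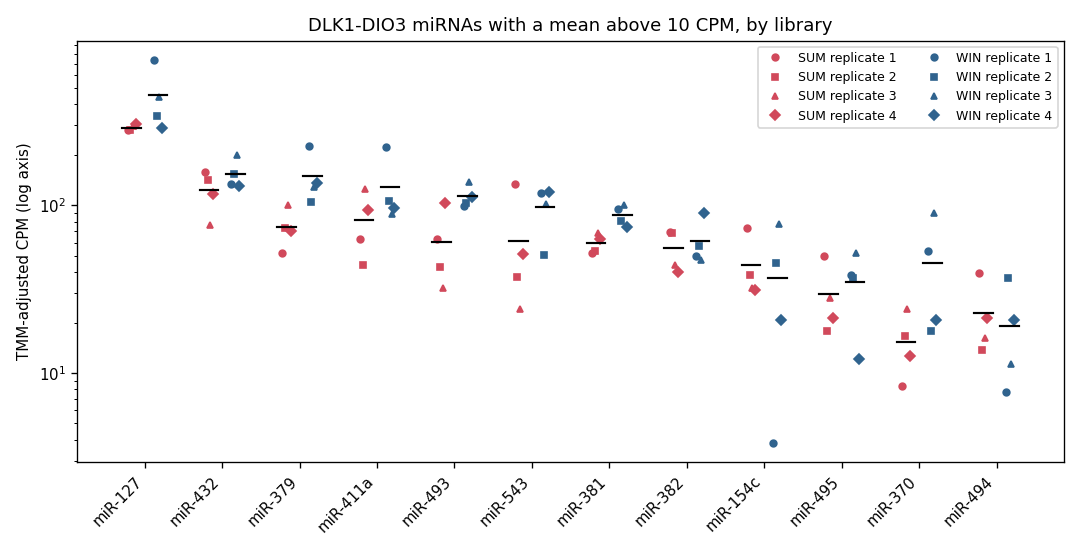
CPM (log axis) of the 12 DLK1-DIO3 miRNAs with a mean above 10 CPM, SUM libraries left of WIN libraries for each miRNA. Points are single libraries and bars are season means (n = 4 each): miR-379 and miR-381 are the members whose SUM libraries all lie below their WIN libraries, and miR-154c has 1 WIN library at 3.83 CPM.

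Further along the array, the miR-376 group held next to nothing. The 7 members from miR-376e to miR-1185 summed to 2.54 ± 2.69 CPM in SUM and 8.36 ± 7.97 CPM in WIN, with 30 reads in all 8 libraries together. The SUM libraries (0 to 6.28 CPM) overlapped the WIN libraries (0 to 19.1 CPM). miR-376a, miR-376b and miR-376e had no read, and miR-376c and miR-376d, whose family is known for RNA editing in human and mouse, had 4 reads and 1 read in total. Most of the stretch's reads belonged to miR-654, with 2 reads in SUM and 21 in WIN.

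The stretch from miR-381 to miR-382 summed to 119 ± 8.98 CPM in SUM and 160 ± 10.3 CPM in WIN, and the SUM libraries (111 to 129 CPM) did not overlap the WIN libraries (147 to 172 CPM). bta-miR-381 had 52.3, 53.7, 68.4 and 62.8 CPM in SUM, against 95.7, 81.1, 100.4 and 74.5 CPM in WIN. These groups did not overlap either, with SUM lower, and the log2 fold change was -0.56 (SE 0.27, 95% interval -1.15 to 0.03, unadjusted p = 0.061, adjusted p = 0.25). bta-miR-382 had 69.0, 68.9, 44.2 and 40.2 CPM in SUM, against 49.8, 57.0, 47.1 and 90.1 CPM in WIN. The groups overlapped, and its log2 fold change of -0.13 (SE 0.34, adjusted p = 0.89) changed sign without SUM replicate 4 or WIN replicate 4.

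The last stretch, from miR-134 to miR-656, had 14 members and none above 10 CPM. It summed to 33.5 ± 11.4 CPM in SUM and 42.2 ± 15.6 CPM in WIN, and 10 of the 14 were read. The SUM libraries (23.0 to 48.3 CPM) overlapped the WIN libraries (30.4 to 65.1 CPM). This last stretch held few reads. It holds miR-134, known in mouse neurons for limiting dendritic spine growth, which had 4.18, 2.75, 4.02 and 3.77 CPM in SUM, against 15.3, 10.1, 2.84 and 1.73 CPM in WIN. The SUM values of miR-134 came from 8 reads in all and lay inside the WIN range. By genomic order, the members above 10 CPM were therefore 3 of 7 in the first stretch, miR-370, 6 of 14 from miR-379 to miR-154c, and 2 of 7 from miR-381 to miR-382, with 0 in the other stretches.

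Levels of members compare read counts, which also depend on how well each miRNA is ligated and amplified. By mean CPM, bta-miR-127 stood first, followed by miR-432, miR-379, miR-411a and miR-493 (ranks 84 to 138 of all miRNAs), then miR-543, miR-381, miR-382, miR-154c, miR-495, miR-370 and miR-494 (ranks 145 to 204). miR-127 exceeded each other member in all 8 libraries. Below it, the libraries of each member overlapped those of the next in this order. The highest of the 8 values fell in a WIN library for 10 of the 12 members and in a SUM library for 2, and the lowest in a SUM library for 9 and in a WIN library for 3. Of the highest values, 6 fell in WIN replicate 3 and 3 in WIN replicate 1. Of the lowest, 4 fell in SUM replicate 1 and 3 in SUM replicate 3. The share over all 243 miRNAs was not counted, so these counts give no season result for the cluster.

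For the 18 members from 1 to 10 CPM, the test was repeated over the 422 miRNAs with a mean above 1 CPM. Of the 30 members tested there, limma called 0 lower in SUM (beside 0.474% of the 422) and 0 higher (beside 1.42%). At an unadjusted p below 0.05, 2 were lower (beside 5.21%) and 0 higher (beside 7.35%). edgeR also called 0 lower (beside 1.18%) and 0 higher (beside 0.948%), with 4 lower at an unadjusted p below 0.05 (beside 7.58%). DESeq2 called miR-370 and miR-379 lower (2 of 30, beside 4.5%) and 0 higher (beside 5.45%). The log2 fold change was negative for 22 of 30, beside 49.5% of the 422, a count without a test of its own. Some of the 30 passed the filter through 1 season only. miR-654, miR-136 and miR-376c averaged 0.867, 0.314 and 0.314 CPM in SUM, against 6.30, 2.10 and 2.06 CPM in WIN. miR-412 and miR-377 each averaged 2.01 CPM in SUM and 0 in WIN. The 22 also include miR-433, whose estimate of -0.0006 changed sign in 7 of 15 alternatives. Libraries failed to overlap, with SUM lower, for the same 2 of the 30 (miR-379 and miR-381, beside 4.98%), and with SUM higher for 0 (beside 5.21%), so none of the 18 separated the seasons.

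The most read of these 18 was miR-485, with 6.28, 12.4, 8.05 and 15.1 CPM in SUM, against 7.66, 0, 11.9 and 1.73 CPM in WIN. Its log2 fold change was 1.38 (SE 0.86, adjusted p = 0.49), a direction opposite to that of most members. bta-miR-369-3p had 0, 1.38, 0 and 8.79 CPM in SUM, against 26.8, 0, 13.0 and 6.93 CPM in WIN (log2 fold change -1.76, SE 1.08, adjusted p = 0.49). The other arm of the same hairpin, miR-369-5p, had 6.28, 6.89, 4.02 and 5.02 CPM in SUM, against 0, 8.87, 5.67 and 12.1 CPM in WIN. miR-369-3p thus had 8 reads in SUM and 34 in WIN, whereas bta-miR-369-5p had 13 reads in SUM and 24 in WIN, and the arms were each missing from at least 1 WIN library.

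bta-miR-654 had 2.09, 1.38, 0 and 0 CPM in SUM, against 11.5, 6.34, 7.37 and 0 CPM in WIN (log2 fold change -1.68, SE 0.92, adjusted p = 0.43). bta-miR-411c-5p had 0, 4.13, 0 and 2.51 CPM in SUM, against 3.83, 8.87, 5.67 and 3.47 CPM in WIN (log2 fold change -1.58, SE 0.83, adjusted p = 0.43). In both miRNAs a library at 0 or a single SUM value prevented separation of the seasons. The remaining members from 1 to 10 CPM were miR-433, miR-323, miR-154b, miR-487b, miR-380-5p, miR-758, miR-410, miR-409a, miR-136, miR-376c, miR-412 and miR-377, with SUM means of 0.314 to 6.75 CPM and WIN means of 0 to 7.94 CPM.

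Below 1 CPM, miR-380-3p, miR-1185, miR-329b, miR-656 and miR-376d had 1 to 9 reads each. Members read in only one season were read too rarely to compare. miR-412, miR-377, miR-1185 and miR-376d had 1 or 2 reads, all in SUM, and miR-656 had 1 read, in WIN, all under the 3 reads that a count of 0 allows. Members without a read were miR-154a, miR-299, miR-329a, miR-376a, miR-376b, miR-376e, miR-409b, miR-411b, miR-431, miR-487a, miR-496, miR-541, miR-544a, miR-655 and miR-665. For these, a count of 0 allows 1.70 CPM in the deepest library and 12.1 CPM in the shallowest. Some have close relatives or overlapping genes in the list, such as miR-409a and miR-409b at one locus, and reads of such copies could have been assigned to either. Over all 35 members with a read, the season mean was lower in SUM for 25, beside 51.7% of the 545 miRNAs with a read.

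Detection differed little by season. At least 1 read was found for 22, 23, 22 and 28 members in SUM replicates 1 to 4, against 26, 21, 28 and 23 in WIN replicates 1 to 4. The means were 23.8 ± 2.87 members in SUM and 24.5 ± 3.11 in WIN, a difference smaller than the spread between libraries. At the depth of the shallowest library, 214004 reads, the expected number was 17.9, 17.2, 22 and 19.7 members in SUM, against 25.4, 18.1, 22.5 and 19.3 in WIN. The mean difference of -2.11 members was again within the spread of either season. With at least 3 reads required, 16 ± 2.94 members were found in SUM and 18.75 ± 4.99 in WIN, a difference of -2.75.

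**Figure D4:**
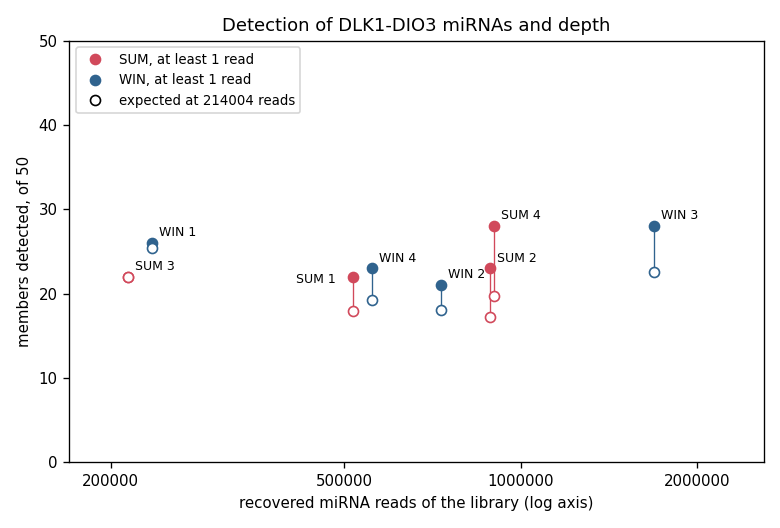
Members of the cluster detected in each library (vertical axis, of 50) against its recovered miRNA reads (log axis). Filled points give members with at least 1 read, open points the number expected at 214004 reads, and lines join the values of a library: SUM replicate 4 and WIN replicate 3 have the most members with a read (28 each), and WIN replicate 1 has the most expected members (25.4).

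miRNAs of other cell types were read in the same libraries and moved with season in part. The arms of endothelial miR-126 (2 of 2 read) summed to 1065 to 2418 CPM in SUM and 2290 to 3595 CPM in WIN. Nearly all of this was miR-126-3p, which was called lower in SUM (log2 fold change -1.02, adjusted p = 0.094), whereas miR-126-5p averaged 39.8 CPM in SUM and 37.4 CPM in WIN (log2 fold change 0.12, adjusted p = 0.90). The mesenchymal miRNAs (7 of 7) summed to 39513 to 57568 CPM in SUM and 33116 to 59129 CPM in WIN (1 called lower, 0 higher). Nearly all of this was miR-143 (log2 fold change 0.08, adjusted p = 0.89). The 1 called lower was miR-199b, which averaged 36.4 CPM in SUM and 123 CPM in WIN (log2 fold change -1.67, adjusted p = 0.058). Of the 7, 4 had a negative log2 fold change, and miR-214 differed by 0.35 (adjusted p = 0.51). Red blood cell miRNAs (3 of 3 read) summed to 5262 to 12731 CPM in SUM and 2439 to 25918 CPM in WIN. The maximum fell in WIN replicate 1, where the cluster was also highest, and came mostly from miR-451 (18773 CPM there). miR-486 was highest in SUM replicate 1 (8251 CPM, against 7145 CPM in WIN replicate 1), and miR-144 was at 0 in WIN replicate 1. White blood cell miRNAs (4 of 4) summed to 418 to 751 CPM in SUM and 207 to 328 CPM in WIN. Most of this was miR-142-5p, which averaged 527 CPM in SUM libraries and 238 CPM in WIN libraries and was the 1 called higher of 2 tested above 10 CPM. Below that level, miR-142-3p averaged 3.60 CPM in SUM and 9.55 CPM in WIN (log2 fold change -1.61, adjusted p = 0.43), and miR-223 differed by -0.24 (adjusted p = 0.95). Epithelial miRNAs (5 of 5) summed to 5831 to 14149 CPM in SUM and 4299 to 9279 CPM in WIN. The largest part was miR-200b (log2 fold change 0.15, adjusted p = 0.88). The 1 called higher was miR-200a (log2 fold change 1.36, adjusted p = 0.062). The others differed by 0.90 (miR-429, adjusted p = 0.18), 0.29 (miR-141, adjusted p = 0.81) and 0.03 (miR-200c, adjusted p = 0.96). Over all 243 miRNAs above 10 CPM, limma called 5.35% higher and 2.47% lower. No marker was at 0 in all libraries, and the part of these cell types in the cluster's values was not tested.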

How the data were processed

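FF-EV small RNA was sequenced (TruSeq Small RNA) in 8 libraries, 4 SUM and 4 WIN. The authors trimmed and annotated reads in CLC Genomics Workbench against miRBase 22 and ARS-UCD1.2, and deposited TMM-adjusted CPM, a signal whose column sums vary between libraries. The submitters' processing notes also name bcl2fastq, Bowtie2 2.2.2 and DESeq2. Dividing each library by its smallest value above 0 gave whole reads for 100% of values (tolerance 0.001).

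In R 4.3.3, limma 3.58.1 (lmFit, then eBayes with a trend) compared all 8 libraries on log2(CPM + 1) without a covariate, for miRNAs with a mean above 10 CPM and again above 1 CPM. For low miRNAs, log2 fold changes on this scale can be smaller or larger than those of edgeR, or differ in sign. miR-412 had 0.79 in limma and 2.97 in edgeR, miR-485 had 1.38 and 0.81, and miR-369-5p had 0.25 and -0.41. A miRNA was called at a fold change beyond 1.5 and a p below 0.1 after Benjamini-Hochberg adjustment over all miRNAs tested. edgeR 4.0.16 (quasi-likelihood) and DESeq2 1.42.0 on recovered reads, pseudocounts of 0.5 and 5, no filter, rescaling to 1000000, a replicate block and leaving out each library were alternatives. Pools, not cows, are the replicates, and p-values measure the spread between pools. Wilson intervals, the expected detection (exact rarefaction) and sums used scipy 1.17.1 and numpy 2.4.6 in Python 3.11.15, and matplotlib 3.10.9 drew the figures.

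Members, marker lists and alternatives were chosen with earlier results of these data known. Members above 10 CPM are given by library, those from 1 to 10 CPM by season means (those below 1 CPM by reads), and single values of miR-134, miR-485, miR-369-3p, miR-369-5p, miR-654 and miR-411c-5p were added after their values were seen. Leaving out both shallowest libraries and DESeq2 above 1 CPM were added after seeing the data.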

Additional observations from a re-analysis of the deposited data

Results flagged for a closer look

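Among 42 groups of 4 libraries checked for a library far from the others, 3 had one, and chance alone marks about 1 group in 20. In WIN, miR-411a reached 222 CPM in replicate 1, and the next WIN library had 106 CPM. In SUM, miR-323 had 12.1 CPM in replicate 3, which is 3 reads of the shallowest library, and the next SUM library had 2.51 CPM. SUM replicate 4 detected 28 members of the cluster, and the next SUM library detected 23.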

How the results depend on the processing

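Of the 12 members above 10 CPM, limma called 0 lower in SUM, against 2 after rescaling to 1000000, 1 in edgeR and 3 in DESeq2. Without both shallowest libraries (chosen after seeing the data) limma called 1 lower, beside 11 of all 241 miRNAs tested. When each library was left out, 0 to 1 were called lower. The 1 was miR-379 without SUM replicate 3, beside 7 of all 242 miRNAs tested. Above 1 CPM the count was 0, against 2 in DESeq2. The members' median of -0.55 was -0.35 without a filter (35 members), -0.35 without both shallowest libraries and -0.68 to -0.38 when each library was left out. The summed CPM kept its sign, with log2 ratios of -0.77 after rescaling, -0.57 without miR-127, -0.42 without both shallowest libraries and -0.68 to -0.43 when each library was left out. Detection differed by -0.75 members, by -2.75 at 3 or more reads, by -2.11 at equal depth, by 0.33 without both shallowest libraries and by -2.17 to 0.42 when each library was left out, all smaller than the spread between libraries (SD 2.99). The cause of these shifts was not tested. Of 453 alternatives for single members, 8 passed the threshold where limma did not (miR-379 in 5, miR-493 in 2 and miR-370 in 1). Depth limits the 38 members at or below 10 CPM, where 1 read stood for 0.567 to 4.02 CPM.

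SUM and WIN titles share replicate numbers, but the sources do not say that a number marks the same cows. Library deviations correlated at -0.02 to 0.30 within a number (2 of 4 above 0.1), against -0.32 to 0.26 between numbers (3 of 12 above 0.1). These values do not settle whether the numbers mark pairs, and the main test did not use them as a pairing. With the replicate block, 0 members were called and the median was -0.55, while calls over all miRNAs above 10 CPM were 15 higher and 10 lower, against 13 and 6 without the block. Above 1 CPM they were 13 higher and 10 lower, against 6 and 2, and 2 of 4 SUM libraries correlated best with their own number.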
